A study of Homo sapiens with 7 samples.

Results

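UNC13 proteins prime secretory vesicles for release. They act on the syntaxin that waits on the plasma membrane, so that it can pair with a SNAP protein and with a vesicle SNARE and draw the vesicle and the membrane together. UNC13A and UNC13C are known from neurons, UNC13B is more widely expressed, and UNC13D serves the release of lytic granules by cytotoxic lymphocytes. STX1A (syntaxin 1A) and SNAP25 are the plasma membrane SNAREs of synapses and endocrine cells, and SNAP23 is the relative of SNAP25 found in most other cells.

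The 4 UNC13 genes and 3 of these partners (STX1A, SNAP25 and SNAP23) were described in RNAseq counts of RH30 cells, an established line of alveolar rhabdomyosarcoma (RMS) with a wild-type genotype label. The study's methods state that its RH30 cells expressed GFP and luciferase, which the sample titles do not name. The genes are 7 of the 57189 in the count table, and each was found by its symbol. The group was selected on the large BV6 response of UNC13A in these same samples, and its relatives and partners were added by family. Differences of the 7 genes between BV6 and untreated cells are therefore descriptions here and carry no test. BV6 is a Smac mimetic, a small molecule that binds and removes inhibitor of apoptosis proteins. It was given at 5 µM for 24 h to 3 samples (replicates 2 to 4), and 4 samples were left untreated (replicates 1 to 4). Replicates 2, 3 and 4 of both groups carry the sample labels BC13, BC14 and BC25/27, while untreated replicate 1 (BC11) has no BV6 partner. The study describes its replicates as biological, but the labels name neither separate cultures nor what BC stands for. P-values measure only the spread between these samples, which may be partly technical.

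Of the 12 myogenic marker genes, 11 lay at or above 1 CPM (counts scaled to library size), with MYOD1 at 344 ± 86.9 CPM and DES at 768 ± 114 CPM in untreated cells (SD, n = 4), and MYF6 stayed at 0 to 5 counts. Of 16 neuronal and neuroendocrine markers, 8 reached 1 CPM as a mean over the 7 samples, namely ENO2, TUBB3, GAD1, INSM1, RBFOX3, CHGA, SLC17A7 and SYP. Their summed level was 145 to 216 CPM in untreated and 92.2 to 177 CPM in BV6 samples, and NEFM, STMN2 and SLC17A6 had 0 counts in at least 1 sample. Of 13 markers of NK cells and other cytotoxic lymphocytes, NCAM1 and NKG7 reached 1 CPM (sum of the list 355 to 495 CPM untreated, 275 to 401 CPM BV6). That sum was mostly NCAM1, at 427 ± 65.3 CPM in untreated (SD, n = 4) and 347 ± 69.2 CPM in BV6 samples (SD, n = 3). NKG7 lay at 9.79 ± 1.6 CPM in untreated cells. PRF1 lay at 0.438 ± 0.269 CPM (SD, n = 4) in untreated cells, and KLRF1 had 0 to 3 counts. Of 11 B-cell, myeloid and mast cell markers, CD79B and CD68 reached 1 CPM. The list summed to 5.04 to 6.27 CPM in untreated and 6.91 to 8.57 CPM in BV6 samples, without overlap of the sums. CD68 had means of 2.96 ± 0.918 and 4.73 ± 0.486 CPM, and CD79B of 1.02 ± 0.31 and 1.05 ± 0.28 CPM. Of the 6 genes tested, 4 had a log2 fold change above 0 and 2 below. The groups did not overlap in 1 of these 6, against 8.83% of all tested genes. No gene of these 4 lists passed the edgeR test described below, which 0.450% of all tested genes passed. The part of these genes in the results below was not tested. Libraries held 54070030 to 77220882 counts, and 3 counts, the smallest number taken as detected, came to 0.0389 to 0.0557 CPM, a floor that covers counting error only. In bulk RNA, a change in the number of cells that express a gene cannot be told apart from a change in RNA per cell.

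UNC13A lies on chromosome 19 (17601336 to 17688365, minus strand, GRCh38), and UNC13B on chromosome 9 (35161992 to 35405338, plus strand). The sequences before the RefSeq starts of these close relatives are shown because they made up most of the UNC13 level in BV6-treated cells, UNC13B with and UNC13A without a like level in untreated cells. Each is the 250 bases upstream of the start (GRCh38.p14), 5′ to 3′ on the gene's strand, with every CG dinucleotide in capitals. The UNC13A sequence is chr19:17688355-17688604 on the minus strand, and the UNC13B sequence, the first of 3 starts, is chr9:35161759-35162008 on the plus strand.
UNC13A: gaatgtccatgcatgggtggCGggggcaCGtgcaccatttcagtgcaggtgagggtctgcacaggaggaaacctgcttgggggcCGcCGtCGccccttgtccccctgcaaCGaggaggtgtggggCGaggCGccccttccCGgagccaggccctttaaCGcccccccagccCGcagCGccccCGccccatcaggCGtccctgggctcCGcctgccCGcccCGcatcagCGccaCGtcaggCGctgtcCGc
UNC13B: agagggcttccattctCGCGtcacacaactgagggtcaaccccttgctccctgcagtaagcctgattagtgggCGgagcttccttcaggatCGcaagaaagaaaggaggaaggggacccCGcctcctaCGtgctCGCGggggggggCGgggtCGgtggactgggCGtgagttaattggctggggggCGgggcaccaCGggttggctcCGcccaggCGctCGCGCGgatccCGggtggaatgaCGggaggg
The UNC13A sequence had a GC content of 72% and 21 CG dinucleotides, and the UNC13B sequence 66% and 20. A CG dinucleotide was found in the same stretch of 93.9% of the 35116 RefSeq start windows, with a median of 11 per window. The κB motif, the consensus site of NF-κB, was searched on both strands of the whole windows, which run 50 bases past the start. It was in 5.91% of all windows and in none of the 7 windows of members, which belong to UNC13A, UNC13B (3 windows), UNC13C, STX1A and SNAP23. This says only that these letters are not in these windows. UNC13D and SNAP25 had no window in the table.

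UNC13A was the member with the largest difference. Its counts were 30, 50, 38 and 29 in untreated replicates 1 to 4 and 846, 559 and 407 in BV6 replicates 2 to 4. Scaled to TMM-normalized library sizes (CPM), these were 0.389, 0.891, 0.631 and 0.469 CPM in untreated and 15.1, 9.12 and 7.56 CPM in BV6 samples. The lowest BV6 sample was several times above the highest untreated one, and replicate 2 was the highest sample of both groups. The untreated mean of 0.595 ± 0.221 CPM (SD, n = 4) compared with a BV6 mean of 10.6 ± 3.96 CPM (SD, n = 3). In edgeR's quasi-likelihood fit over all genes this was a 17.9-fold difference, or 4.16 ± 0.335 (SE) on the log2 scale. Within the samples that share a BC label, the ratio of BV6 to untreated CPM was 16.9 for BC13, 14.5 for BC14 and 16.1 for BC25/27. The level itself varied by a coefficient of variation of 37.2% among the 4 untreated samples, of which replicate 1 has no pair, and 37.4% among BV6 samples. With 3 ratios and untreated counts this low, nothing is read from how close the ratios lie to each other. If every count were a separate fragment, counting error alone would give 16.5% at the mean of 36.8 counts in untreated cells and 4.07% at 604 counts in BV6 cells. When single samples were omitted, the log2 fold change lay between 3.83 and 4.41. On a log2(CPM + 1) scale, which compresses low levels, it was 2.82 with limma.

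UNC13B, the widely expressed relative, was the most abundant UNC13 gene in untreated cells. Its levels were 36.3, 30.6, 35.6 and 34.8 CPM in untreated and 27, 32.9 and 34.4 CPM in BV6 samples. The groups overlapped, and the log2 fold change was -0.13 (standard error 0.126). The BV6 sample was the lower one in all 3 label pairs, with ratios of 0.882, 0.923 and 0.99.

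UNC13D, the relative that serves lytic granules, had 4.04, 2.62, 2.97 and 2.98 CPM in untreated and 3.83, 2.05 and 4.94 CPM in BV6 samples. The BV6 samples held both the lowest and the highest value, and the log2 fold change was 0.19 (standard error 0.289). Its label pairs went in different directions, with ratios of 1.46 (BC13), 0.692 (BC14) and 1.66 (BC25/27). UNC13C, the family member known from the cerebellum, had 5, 8, 7 and 7 counts in untreated and 4, 9 and 9 counts in BV6 samples. That is 0.0649 to 0.143 CPM untreated and 0.0712 to 0.167 CPM with BV6, close to the detection floor, and it was too low for the edgeR filter. A difference in UNC13C was not detectable at this depth.

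**Figure D1:**
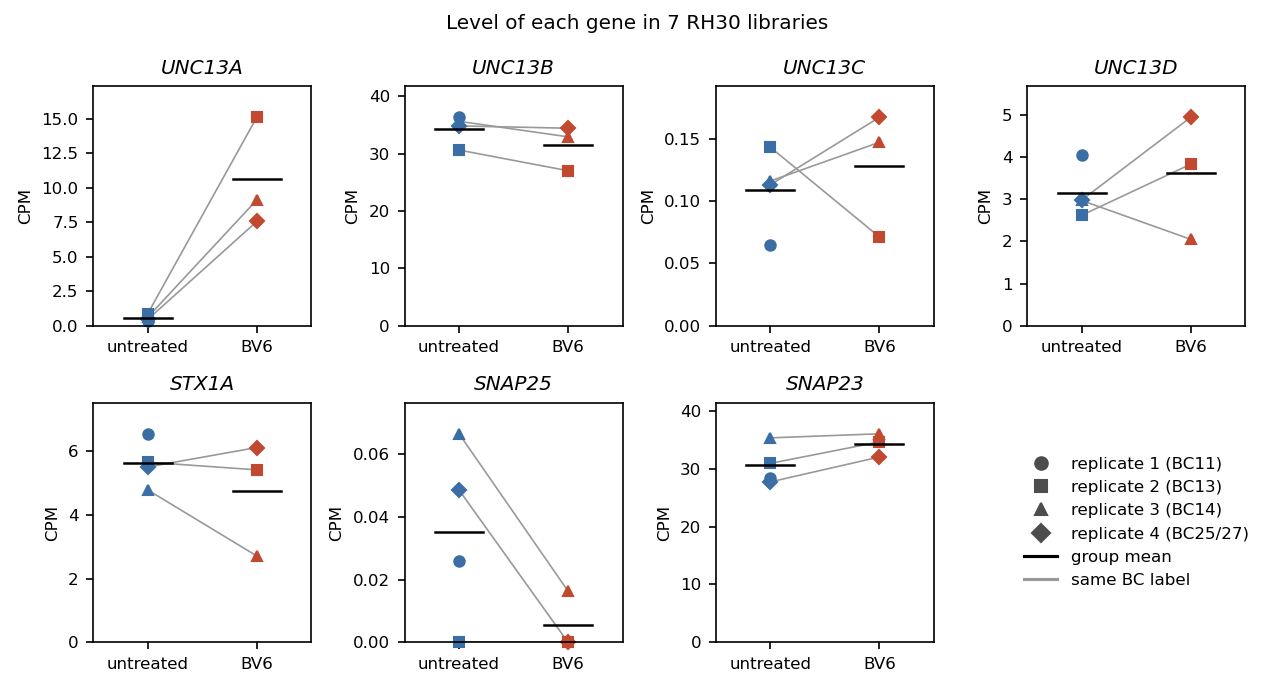
Level in CPM (linear axis from 0) of the 7 genes in 4 untreated (blue) and 3 BV6-treated (red) RH30 samples. Each point is a sample, bars are group means, and grey lines join samples with the same BC label. UNC13A ran from 0.389 to 0.891 CPM in untreated and 7.56 to 15.1 CPM in BV6 samples, and the groups overlapped in the other 6 genes.

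STX1A, the syntaxin on which UNC13 proteins act at synapses, had 6.54, 5.65, 4.78 and 5.5 CPM in untreated and 5.41, 2.71 and 6.11 CPM in BV6 samples. BV6 replicate 3 was the lowest of the 7 samples, and the other 2 BV6 samples lay within the untreated range. The log2 fold change was -0.25 (standard error 0.264). SNAP25, the synaptic partner of STX1A, was near or under the detection floor, with 2, 0, 4 and 3 counts in untreated and 0, 1 and 0 counts in BV6 samples. No fold change is given for SNAP25. Its relative SNAP23 was well expressed, at 28.3, 30.9, 35.3 and 27.7 CPM in untreated and 34.6, 36 and 32 CPM in BV6 samples. The groups overlapped, and the BV6 sample was the higher one in all 3 label pairs (ratios 1.12, 1.02 and 1.16). The log2 fold change of SNAP23 was 0.16 (standard error 0.124). Of the exonic bases of SNAP23, 23.8% (1394 bases) are shared with a long non-coding RNA on the opposite strand that was not analysed here, and 3.78% (221 bases) with LRRC57, also on the opposite strand. The use of strand in counting is not given in the sources used here, so these reads may be split either way, and LRRC57 lay at 24.9 ± 1.87 CPM (SD, n = 4) in untreated cells.

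In 5 of the 7 genes the counts passed the filter on low values. In the edgeR quasi-likelihood fit of 23124 genes, an adjusted p (Benjamini-Hochberg) below 0.05 was reached by 104 genes or 0.450%, with 0.394% higher and 0.0562% lower in BV6 cells. Among the 5 members it was reached by UNC13A, for which the group was selected, so nothing is read from that count. The CPM of the groups did not overlap in 8.83% of all tested genes and in 1 of the 5 members, again UNC13A. Over the whole set of tested genes, the log2 fold changes had a median of -0.014.

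UNC13D and STX1A deviated together in BV6 replicate 3, where both had their lowest level of the 7 samples. Both are rich in GC, at 61.3% and 60.2% of the longest transcript, the 89.4th and 86.6th percentiles of tested genes. In that library, the 25% of tested genes richest in GC (above 56.2%) had a median deviation of -0.525 from their 7-sample mean on the log2 scale, and UNC13D and STX1A deviated by -0.643 and -0.9. In untreated replicate 1 the same genes had a median deviation of 0.356, and UNC13D and STX1A deviated by 0.321 and 0.364. UNC13D did not follow these genes in every library, since it deviated by -0.298 in untreated replicate 2, where their median was 0.107, and most upward, by 0.61, in BV6 replicate 4, where it was 0.131. UNC13B (44.7% GC) and SNAP23 (41.1% GC) deviated by 0.138 and -0.174 in untreated replicate 1 and by -0.00324 and 0.172 in BV6 replicate 3. The part of GC content in these values was not tested beyond the corrected fit. Without BV6 replicate 3, the log2 fold change was 0.48 for UNC13D and 0.04 for STX1A. With a GC correction of every library, chosen after the data had been seen, it was 0.35 for UNC13D, -0.12 for STX1A and 4.23 for UNC13A (55.7% GC).

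**Figure D2:**
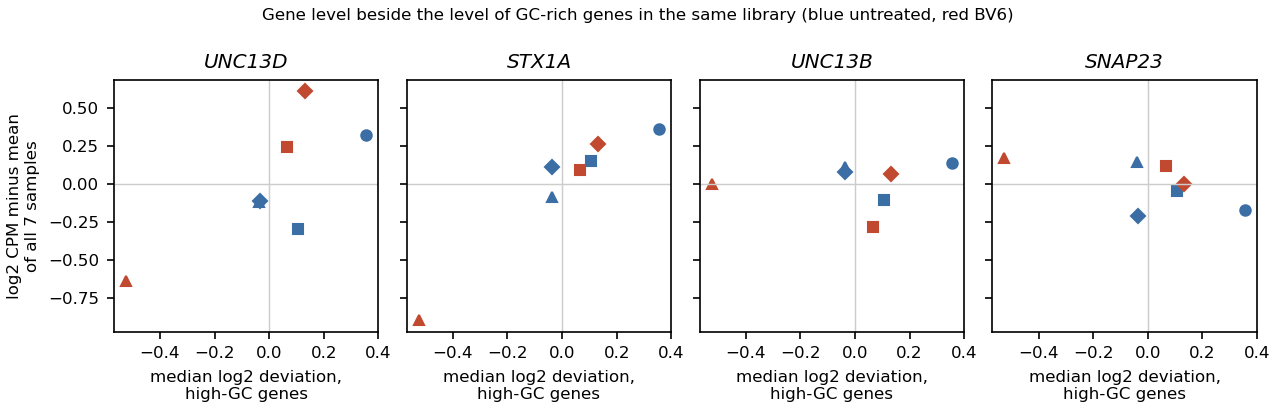
For UNC13D, STX1A, UNC13B and SNAP23, log2 CPM of each sample minus the mean of all 7 samples (y axis) against the median of the same quantity over the 25% of tested genes richest in GC (x axis). The 25% were taken among tested genes with a known GC content. Circles, squares, triangles and diamonds are replicates 1 to 4, blue untreated and red BV6. BV6 replicate 3, at -0.525 on the x axis, is lowest for UNC13D (-0.643) and STX1A (-0.9).

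Levels of different genes were compared per kilobase of exons (union of the exons in GENCODE release 44). In untreated cells the order was SNAP23 (5.22 ± 0.593 CPM per kb), UNC13B (1.92 ± 0.141), STX1A (1.52 ± 0.196), UNC13D (0.404 ± 0.0788), UNC13A (0.0532 ± 0.0198), UNC13C (0.0112 ± 0.00332) and SNAP25 (0.00173 ± 0.00141, all SD, n = 4). The ranges of UNC13B and STX1A overlapped, and no other neighbours in this order did. In BV6 cells UNC13A came after STX1A at 0.946 ± 0.354 CPM per kb (SD, n = 3), ahead of UNC13D at 0.462 ± 0.187. The ranges of UNC13B, STX1A and UNC13A then overlapped from one to the next, and UNC13A and UNC13D did not overlap. These levels depend on the length used. With the longest transcript in place of the union, untreated means were 12.3 for SNAP23, 2.67 for STX1A, 2.35 for UNC13B, 0.719 for UNC13D, 0.0596 for UNC13A, 0.0118 for UNC13C and 0.00544 CPM per kb for SNAP25. STX1A then came before UNC13B in both groups. In BV6 samples UNC13A (0.757 to 1.51 CPM per kb) and UNC13D (0.469 to 1.13) then overlapped, and UNC13D was the higher of the pair in BV6 replicate 4.

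Within the UNC13 family, on the union lengths, UNC13B made up 78.4% to 81.7% of the length-scaled level in untreated samples and 45% to 62.7% in BV6 samples. The part of UNC13A was 1.35%, 3.72%, 2.31% and 1.76% in untreated replicates 1 to 4 and 40.2%, 27.8% and 20.8% in BV6 replicates 2 to 4. The 4 genes summed to 2.39 ± 0.184 CPM per kb (SD, n = 4) without BV6 and to 3.18 ± 0.222 CPM per kb (SD, n = 3) with it, without overlap. These shares follow from the UNC13A values for which the group was selected and were not tested.

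**Figure D3:**
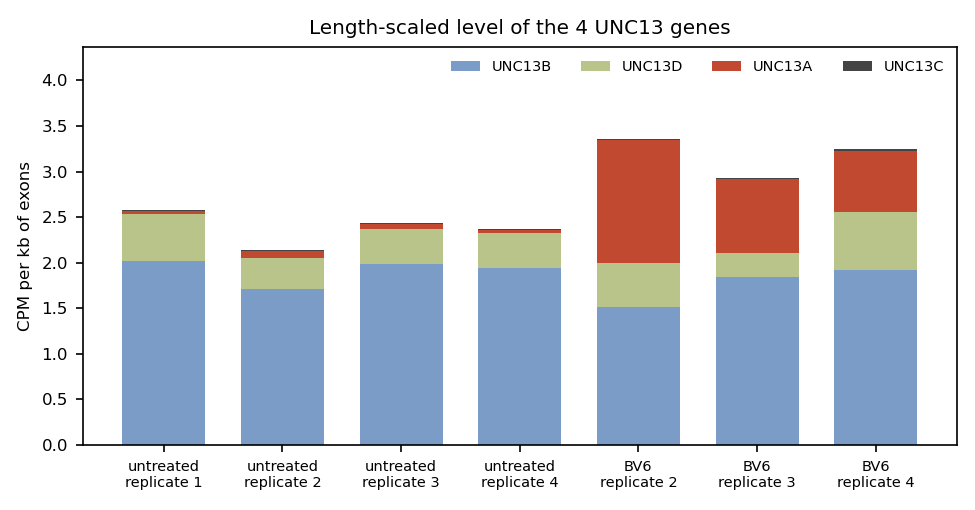
Stacked length-scaled level (CPM per kb of exons, axis from 0) of UNC13B, UNC13D, UNC13A and UNC13C in each of the 7 samples. UNC13A is 1.35% to 3.72% of the stack in untreated and 20.8% to 40.2% in BV6 samples, and UNC13C is barely visible in any of them.

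The other genes of the exocytosis machinery were taken by role from 10 lists of 152 genes in all, of which 128 had enough counts to be tested. In edgeR, 0 of the 128 passed after Benjamini-Hochberg adjustment over all 23124 genes, against 0.450% of all tested genes. At so low a share, nothing is read from that 0. At an unadjusted p below 0.05 there were 10 (7.81%), against 8.39% of all tested genes. Their median log2 fold change was 0.0025 and the range -1.46 to 1.11. The groups did not overlap in 13 of them (10.2%), close to the share in all genes.

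Among active zone scaffolds, which hold vesicles at release sites, 13 of 15 genes were tested with a median log2 fold change of -0.032. The largest differences were in RIMBP2 (0.76, standard error 0.404) and RIMBP3 (-0.53, standard error 0.342). Among priming factors and the Rab and other proteins that work with UNC13, 16 of 20 were tested (median -0.069). CADPS, a vesicle priming factor with a domain related to UNC13, had 0.026, 0.0356, 0.315 and 0.275 CPM in untreated replicates 1 to 4 and 0.321, 0.375 and 0.353 CPM in BV6 replicates 2 to 4. Untreated replicates 1 and 2 lay under the detection floor, and replicates 3 and 4 lay near the BV6 samples. Its log2 fold change was 1.11 ± 0.703 (SE), with an edgeR adjusted p of 0.728. SYTL1, a synaptotagmin-like protein that binds Rab27, had a log2 fold change of -0.82 (standard error 0.39).

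All 12 Sec1/Munc18 and syntaxin-binding genes were tested (median log2 fold change 0.11), and STXBP6, which encodes a syntaxin-binding protein also called amisyn, was at 0.27 (standard error 0.113). The 15 other syntaxins had a median of 0.016. STX11, which serves granule release in lymphocytes, had -0.37 (standard error 0.198). Among the 6 genes of other SNAP proteins and SNARE disassembly (median -0.079), NAPA, which encodes α-SNAP, and SNAP47 differed most (-0.24 and -0.23). The 17 vesicle SNAREs and related SNAREs had a median of 0.021, with VAMP1 at -0.29 and VAMP8 at 0.24.

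Of 21 calcium sensors and complexins, which trigger and clamp fusion, 10 were tested (median -0.018). SYT7, a calcium sensor of slow release, had 3.91, 1.19, 4.25 and 2.83 CPM in untreated replicates 1 to 4 and 0.944, 0.783 and 1.62 CPM in BV6 replicates 2 to 4. Its groups overlapped, and the log2 fold change was -1.46 ± 0.434 (SE). SYT7 did not pass in edgeR (adjusted p of 0.312) and was the 1 gene (0.752%) that passed with the DESeq2 Wald test among the 133 listed genes with an adjusted p there, against 1.67% of all genes. SYT8 differed by -1.04 (standard error 0.504). Among synaptic vesicle proteins (14 of 17 tested, median -0.021), SYP, the vesicle protein synaptophysin, had a log2 fold change of 0.54 (standard error 0.236). SV2C, near the detection floor with 3 to 12 counts in untreated samples, had 0.56 (standard error 0.647). The 9 exocyst genes, which tether vesicles, had a median of 0.089, with EXOC8 at 0.43 and EXOC4 at 0.22. Diacylglycerol binds the C1 domain of UNC13A, UNC13B and UNC13C, a domain that UNC13D lacks, and 16 of 20 genes that make or remove it were tested (median -0.14). DGKI, a diacylglycerol kinase, was at -1.24 ± 0.393 (SE; edgeR adjusted p of 0.369), and PLCG2, a phospholipase C, at 0.81 (standard error 0.383).

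**Figure D4:**
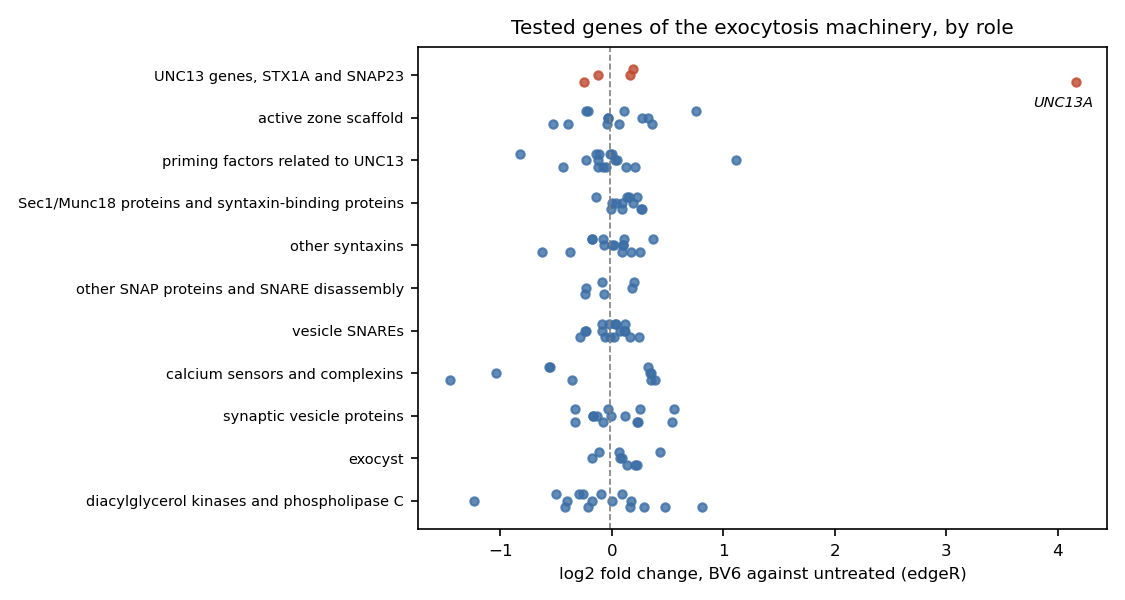
Log2 fold change, BV6 against untreated (edgeR), of the 5 tested members (red, top row) and of the tested genes of 10 exocytosis lists (blue, each point a gene). The dashed line is the median of all tested genes, -0.014. The listed genes range from -1.46 to 1.11, and UNC13A stands at 4.16.

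The surroundings of the members were described by the genes within 250 kb of each that could be matched by symbol to GENCODE release 44. At the UNC13A locus 14 neighbours were tested, with log2 fold changes between -0.66 and 0.26 and overlapping groups in all 14. Groups without overlap were found in 3 of the 69 neighbours tested over all members (4.35%), against 8.83% of all tested genes. With so few neighbours, nothing is read from the overlap at this locus. The nearest tested gene on the lower-coordinate side was COLGALT1, a collagen galactosyltransferase 18.2 kb away, with 169 ± 20.8 CPM (SD, n = 4) before and 164 ± 37.3 CPM (SD, n = 3) after BV6. On the other side it was MAP1S, a microtubule-associated protein 30.9 kb away, at 25.4 ± 12.4 and 18.5 ± 9.25 CPM. No exon of UNC13A is shared with another gene in GENCODE release 44. Over all members, 69 neighbours were tested and 0 passed in edgeR after adjustment, against 0.450% of all tested genes. At an unadjusted p below 0.05 in edgeR there were 2 (2.9%), against 8.39% of all tested genes. With DESeq2, 1 of 68 neighbours (1.47%) passed, against 1.67% of all genes with an adjusted p. That gene, named after its values were seen, was TRIM47, a ubiquitin ligase 29.4 kb from UNC13D, with 5.66, 4.72, 2.69 and 4.25 CPM in untreated and 19.5, 6.82 and 13.7 CPM in BV6 samples. TRIM47 differed by 1.62 ± 0.344 (SE) on the log2 scale (edgeR adjusted p of 0.115), and it passed without BV6 replicate 3.

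The genes whose pattern over the 7 samples lay nearest to that of UNC13A were found by the root mean square difference of log2 CPM, each gene centred on its own untreated mean. The nearest was ITGAM, an integrin subunit (0.301), followed by TRAF1, a signalling adaptor of TNF receptors (0.555), CCL5, a chemokine (0.618), EGOT, a long non-coding RNA with at most 6 counts in an untreated sample (0.698), and BIRC3, which encodes cIAP2 (0.701). ITGAM had 0.48, 0.713, 0.564 and 0.372 CPM in untreated and 15.3, 9.38 and 10.5 CPM in BV6 samples. In ITGAM, TRAF1 and BIRC3, as in UNC13A, replicate 2 was the highest sample of each group. CCL5 and EGOT were also highest in replicate 2 among untreated samples, but in replicate 4 among BV6 samples. These 5 genes were ordered by likeness to a gene selected on the same contrast, and no test was made of it. A like size of the BV6 difference and a like order of replicates are partly built into that choice, so nothing is read from them.

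**Figure D5:**
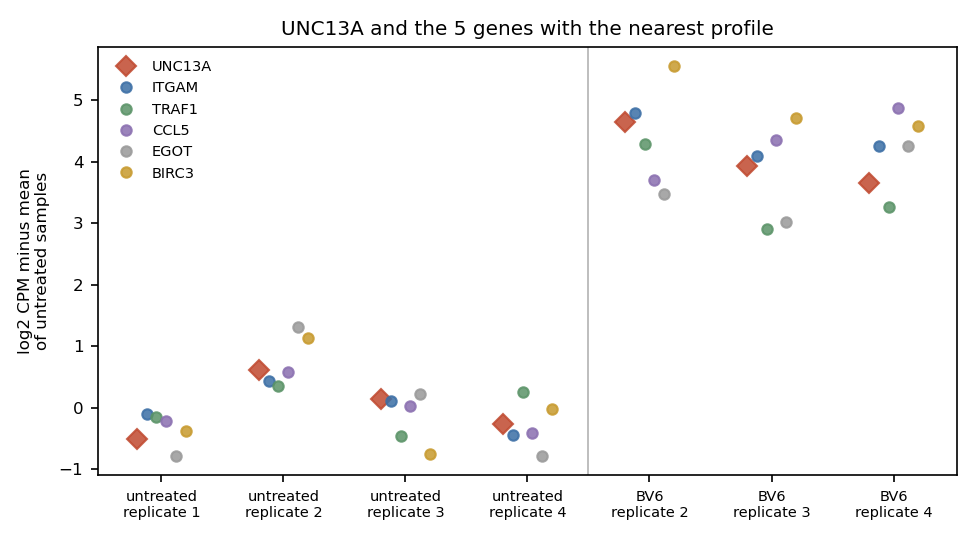
Log2 CPM minus the mean of the 4 untreated samples for UNC13A (red diamonds) and the 5 genes nearest to it (circles), in each of the 7 samples. In BV6 samples UNC13A lies between 3.66 and 4.65 and ITGAM between 4.09 and 4.8, and points are set apart sideways for legibility.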

How the data were processed

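The authors made stranded paired-end libraries from poly(A) RNA of RH30 cells. Reads were mapped to GRCh38 (Ensembl release 95) with STAR 2.6.1d and counted per gene with a union model of isoforms. The counting program, its use of strand and whether the mates of a pair counted separately are not given in the sources used here. The library totals exceed the read numbers stated in the study's methods, so mates may have been counted separately, and the counting errors and the floor would then be understated. The deposited values are raw counts per gene symbol. Samples were grouped by their treatment label.

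The main test was the quasi-likelihood F test of edgeR 4.0.16 under R 4.3.3, with condition as the single term, TMM factors and the filterByExpr filter (minimum count 10), and Benjamini-Hochberg adjustment over 23124 genes, with a threshold of 0.05. The study's methods name the DESeq2 Wald test, used here as an alternative (DESeq2 1.42.0). Limma 3.58.1 was used on log2(CPM + 1). CPM refers to TMM-normalized library sizes, and log2 CPM carries a prior count of 2. Libraries held 54070030 to 77220882 counts. Replicates of a group differed by more than counting noise in every pair. The scripts were tested on simulated data.

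Samples with the same BC label had deviations from their group means that correlated across genes by 0.462, 0.438 and 0.0847 (BC13, BC14, BC25/27). Unlike labels gave -0.437 to 0.278, the highest being BV6 replicate 4 with untreated replicate 1. With untreated replicate 1 left out of the means, same labels gave 0.515, 0.322 and 0.197, and unlike labels -0.352 to 0.132. The pairing thus rests on the labels for BC25/27.

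Of 57189 genes, 36327 were matched by symbol to GENCODE release 44 (GRCh38), whose gene models differ in release from those counted. Start windows are from RefSeq (GRCh38.p14). A GC correction (loess, span 0.5) of 17460 tested genes was added once the data had been seen, alone and with the replicate block. The members, lists and naming rule were chosen with earlier results of these data known. The rule named the members, the listed genes that passed or had the 2 largest fold changes of their list, the 5 genes nearest to UNC13A, the nearest neighbours of UNC13A and genes sharing exons with a member. Markers at or above 1 CPM outside the myogenic list were named by it, and the other named markers were chosen after their values were seen. Some genes that this rule names are not reported here.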

Additional observations from a re-analysis of the deposited data

Results flagged for a closer look

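In the 4 untreated samples, the highest sample of STX11 stood apart from the others. Untreated replicate 1 had 13.9 CPM against 8.49 to 8.87 CPM in the other 3 samples. That gap took up 0.929 of the range, above Dixon's critical value. This was the 1 flag among the 7 members and 25 other named genes examined, and chance flags about 1 in 20 such groups. In the same library, GC-rich genes had their highest median level of the 7 samples (0.356 above their mean on the log2 scale). The GC content of STX11 is not given here, and the part of GC content in its value was not tested.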

How the results depend on the processing

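In all fits listed here UNC13A, for which the group was selected, was the single member called. The log2 fold change of UNC13A was 2.82 on the log2(CPM + 1) scale and 4.02 to 4.23 in the 2 fits with a GC correction, and 3.83 to 4.41 with a sample left out. Leaving out a sample gave -0.20 to -0.02 for UNC13B, -0.11 to 0.48 for UNC13D, -0.48 to 0.04 for STX1A and 0.12 to 0.24 for SNAP23, so the sign of UNC13D rested on BV6 replicate 4 (-0.11 without it) and that of STX1A on BV6 replicate 3 (0.04 without it).

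The number of all genes with an adjusted p below 0.05 (main 104, 91 higher and 13 lower) was 408 with the DESeq2 Wald test, 242 with no filter on low counts, 218 with the replicate block, 192 (147 higher, 45 lower) with the GC correction and 1128 (549 higher, 579 lower) with the GC correction and the replicate block. It was 38 to 89 with a sample left out, and at most 65 without any library other than BV6 replicate 3. Of the listed exocytosis genes 1 (SYT7) passed with DESeq2 (0.752%, against 1.67% of all genes). With a sample left out 0 passed, against 0.168% to 0.375% of all genes, and with the replicate block 0, against 0.943%. With the GC correction and replicate block 8 passed (6.30% of 127, against 6.46% of all genes). Of the neighbours, TRIM47 alone passed (1 gene) with DESeq2 (1.47%, against 1.67% of all genes) and with no filter (1.45%, against 0.557%). It also passed alone with the replicate block (1.45%, against 0.943%). With a sample left out, 0 to 1 neighbours passed, the 1 without BV6 replicate 3 (1.45%, against 0.375%). With the GC correction 2 passed (2.90%, against 1.10%), and with the GC correction and replicate block 3 passed (4.35%, against 6.46%). All neighbours that passed in any of these fits were neighbours of UNC13D, which was seen afterwards and not tested. With the replicate block no call of a member changed. Apart from fewer genes and samples in some fits, the cause of these moves was not tested. At this depth UNC13C and SNAP25, with at most 9 counts in a sample, allow no statement on a change.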
